A study of Homo sapiens with 6 samples.

Results

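The integrated stress response is the program by which cells slow general protein synthesis and turn on genes that restore amino acid supply. Each of several kinases, which sense different kinds of stress, phosphorylates the alpha subunit of the translation initiation factor eIF2 (eIF2α). Most translation then falls, while the mRNA of the transcription factor ATF4 is translated better, and ATF4 with its C/EBP partners activates genes of amino acid synthesis, uptake and stress signaling. The mRNA level of *ATF4* itself is therefore only part of its control. Mitochondrial stress is known to enter this program through the protease OMA1, which cleaves DELE1, a protein that then activates the kinase EIF2AK1 (HRI).

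A list of 40 genes of this program was followed, out of 19330 genes in the count table. The genes were chosen by their known roles, with earlier results of these data known, and fall into 7 branches. They include eIF2α kinases with OMA1 (5 genes), eIF2α phosphatase subunits (2), ATF4-CHOP branch factors (8) and stress effectors and secreted factors (7). The other branches are serine synthesis and one-carbon metabolism (6), asparagine, proline, alanine and transsulfuration enzymes (6) and amino acid transporters (6). K562 cells, a human chronic myelogenous leukemia line, had been infected with lentivirus (pLentiCRISPRv2, which delivers Cas9 with a single guide RNA) carrying sgRNAs against either N6AMT1 (sgN6AMT1) or control genes, OR11A1 and OR2M49 as the labels spell them (sgCtrl). N6AMT1 is a methyltransferase. All cells, controls included, carried Cas9 and had passed 48 h of puromycin, and were collected at day 10 after infection from medium with 25 mM glucose, 1 mM pyruvate and 10% serum. RNA-Seq was done on 3 transductions per condition, which are pools of edited cells and not clones, and the sources used here do not tell which sgRNA went into which library.

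The sgCtrl libraries held 742470 to 866894 counts and the sgN6AMT1 libraries 959319 to 5526904, so low genes were measured less precisely in sgCtrl. *N6AMT1* itself held 8.08 ± 2.31 cpm (counts scaled to a common library total; SD, n = 3) in sgCtrl and 2.40 ± 2.10 in sgN6AMT1, with no overlap between the conditions (two-sided exact permutation p = 0.1, the smallest that 3 against 3 can give). All 14 K562 and erythroid markers were detected in every library. Their summed level was 12159 to 18950 cpm in sgCtrl and 19403 to 34828 in sgN6AMT1. The sum is mostly *HBG1* and *HBG2*, which were called higher with *HBE1* and *ALAS2*, whereas 7 of the 14 had fold changes below 0 and *LMO2* was called lower. In bulk RNA, more cells of a kind and more RNA per cell cannot be told apart. Of the other marker lists, the summed epithelial level was 896 to 1067 cpm in sgCtrl and 1416 to 1712 in sgN6AMT1, with *KRT5* and *KRT17* at 0 in every library. *KRT8* and *KRT18* were called higher, while the mean of *EPCAM* was 155 cpm in sgCtrl and 124 in sgN6AMT1 and did not pass. The macrophage and granulocyte list summed to 21.5 to 36.9 and 49.0 to 74.7 cpm, with *ELANE* at 0. Its gene *LYZ* was called higher. *ITGAM*, too low for the test, had 0 counts in every sgCtrl library and 5, 55 and 50 in sgN6AMT1. The lymphocyte list summed to 11.5 to 18.9 and 13.9 to 20.4 cpm with *CD2*, *MS4A1* and *CD79B* at 0, and the fibroblast list to 16.1 to 22.9 and 16.8 to 22.2 cpm with *LUM* and *PDGFRA* at 0. The share of counts on the mtDNA-encoded ORFs was 3.25 to 5.33% in sgCtrl and 0.468 to 1.94% in sgN6AMT1. The part of depth, of these markers and of this share in the results that follow was not tested beyond the values given.

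ATF4 heterodimers bind the C/EBP-ATF response element, written here as TGATGNAAN, where N is any base. This motif was searched on both strands of RefSeq promoter windows (GRCh38.p14, 250 bases before to 50 bases after a transcription start), because it is the sequence through which ATF4 is known to act on genes of this list. Of the 33 listed genes with a window, 10 held a match (30.3%), against 4.45% of the 27305 genes with a window. The matches follow with up to 10 flanking bases, each 5′ to 3′ on the strand that reads TGATG, with the motif in capitals. The position is that of the stretch shown, in GRCh38.p14. The distance is from a start to the match's first base in the direction of the gene, negative before the start. For a match on the opposite strand that base is the last of the motif as printed. Only the sixth and the ninth base of the motif were free to differ.

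*PPP1R15B* (chr1:204412026-204412054, -227): ccgccccggcTGATGCAACctcacgctgc

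*ATF3* (chr1:212565206-212565234, -191): aaggtcaggaTGATGGAAGgctgtcatat

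*CEBPG* (chr19:33374061-33374089, -42): gcgcggcgtcTGATGCAACctgccggcaa

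*CHAC1* (chr15:40953251-40953279, -210, strand opposite to the gene): ctggcaggagTGATGCAACggcaggggag

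*FGF21* (chr19:48755459-48755487, -55, strand opposite to the gene): tcctcctcccTGATGCAATcctggtgttt

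*MTHFD1L* (chr6:150866347-150866375, -129): ccgccggctcTGATGCAATcgcgccgggc

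*ASNS* (chr7:97872458-97872486, -68): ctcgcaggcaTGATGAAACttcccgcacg

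*SLC3A2* (chr11:62881725-62881748, 36, strand opposite to the gene): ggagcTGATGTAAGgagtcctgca

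*SLC7A1* (chr13:29595663-29595691, 7): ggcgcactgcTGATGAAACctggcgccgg

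*SLC1A5* (chr19:46784893-46784921, -97): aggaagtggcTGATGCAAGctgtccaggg

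The sixth base of the match was C in 6 of the 10. A match is a description of the sequence and no evidence of binding, and a gene without one lacks only these letters in these windows. No window was at hand for *EIF2AK1*, *NUPR1*, *PSPH*, *SHMT2*, *PYCR1*, *GPT2* and *SLC7A11*.

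The members that rose on depletion of *N6AMT1* were the transporter heavy chain *SLC3A2*, the secreted factor *GDF15* and the pseudokinase *TRIB3*, with similar fold changes. The remaining members with enough counts for a test, among them *ATF4*, *DDIT3* and *ASNS*, did not pass it. Fold changes are sgN6AMT1 over sgCtrl on the log2 scale, from a quasi-likelihood fit in edgeR across all genes, with p adjusted by the method of Benjamini and Hochberg across 8324 tested genes and 0.05 as the threshold. Levels are cpm after TMM normalization unless stated. Of the 40 members 32 passed the filter on low counts, and 3 of these were called, all higher (9.38%). Over all genes tested 9.85% were called in either direction and 5.09% were called higher. An unadjusted p under 0.05 was reached by 9 members, 7 higher and 2 lower (28.1%, against 26.2% of all genes tested). The conditions did not overlap for 11 members, 8 higher and 3 lower in sgN6AMT1 (34.4%, against 29.2% of all genes tested). These shares lie near the background of the whole table, so the list as a whole did not stand out. The median fold change of the 32 was 0.04, beside 0.01 for all genes tested, with 17 above 0 and 15 below.

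**Figure D1:**
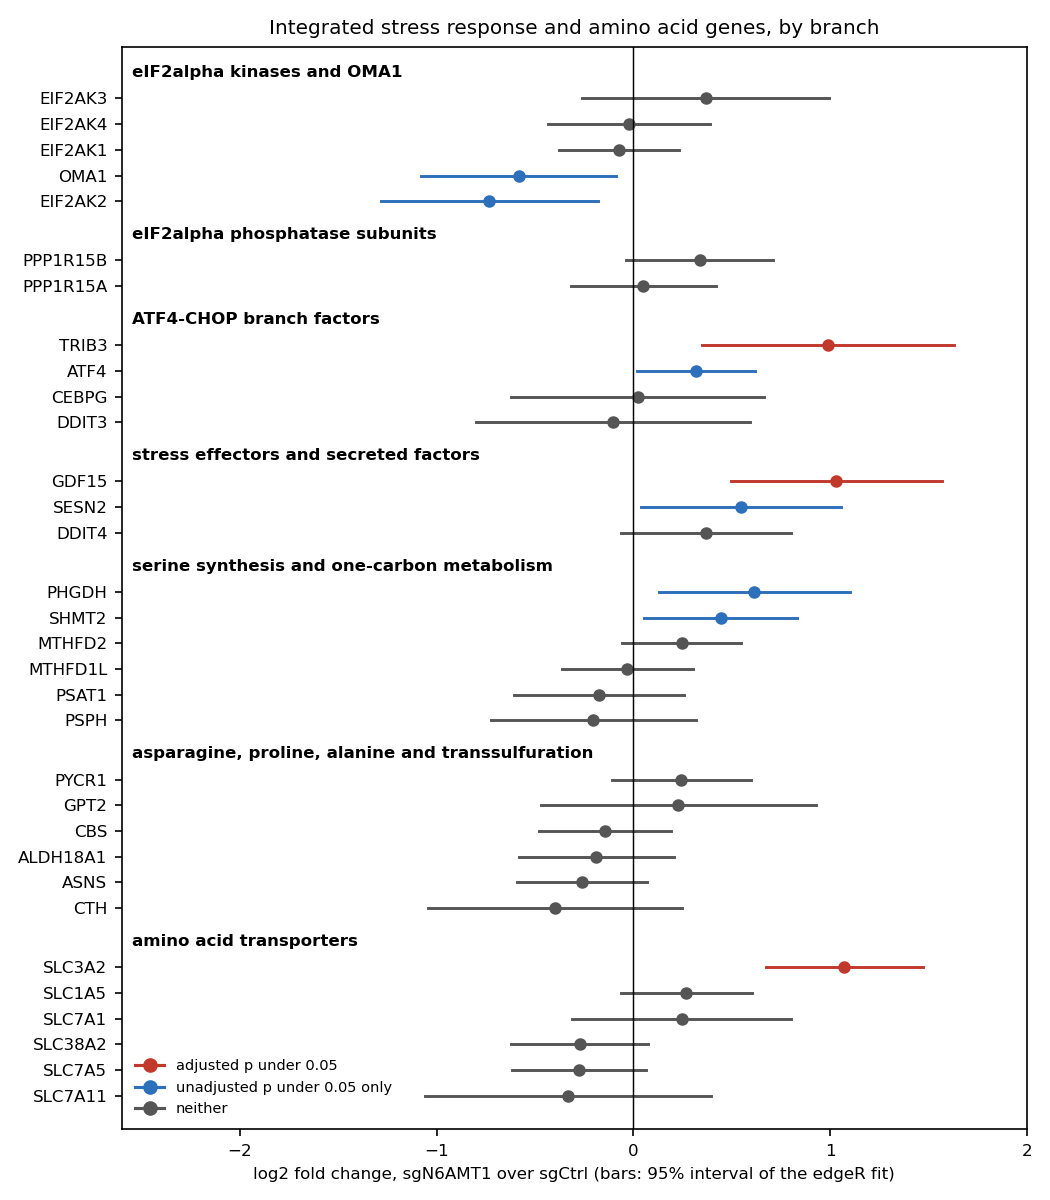
Log2 fold change, sgN6AMT1 over sgCtrl, of the 32 tested members, grouped by branch and sorted within it. Points are estimates of the edgeR fit and bars their 95% intervals. The intervals of *SLC3A2*, *GDF15* and *TRIB3* lie furthest above 0, while 23 of the 32 intervals include 0.

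Among the sensors of stress none passed the test. *EIF2AK1*, the heme-regulated kinase that also relays mitochondrial stress, stood highest of its branch per transcript length, at 57.0 cpm per kilobase in sgCtrl. Its level was 246, 272 and 236 cpm in the sgCtrl libraries and 222, 263 and 229 in the sgN6AMT1 libraries. The conditions overlapped, and the fold change was -0.07 (95% interval -0.38 to 0.23, adjusted p = 0.796). *EIF2AK2* (PKR), the kinase activated by double-stranded RNA, had 53.8, 78.5 and 64.8 cpm in sgCtrl and 50.6, 47.5 and 24.7 in sgN6AMT1. Every sgN6AMT1 library was below every sgCtrl library, with replicate 3 the lowest, and the fold change was -0.73 ± 0.26 (SE, adjusted p = 0.0832). It crossed the threshold in 3 of 16 other ways of processing the data, among them the fit without sgN6AMT1 replicate 1 (fold change -0.86, adjusted p = 0.0408), over a range of 0.0232 to 0.325. Without sgN6AMT1 replicate 3 the fold change was -0.44 (adjusted p = 0.261).

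*EIF2AK3* (PERK), the kinase of the endoplasmic reticulum, had 17.5, 20.8 and 34.2 cpm in sgCtrl and 42.2, 28.3 and 28.0 in sgN6AMT1. The ranges overlapped, and its interval was wide, from -0.26 to 1.00 (fold change 0.37, adjusted p = 0.470). *EIF2AK4* (GCN2), which senses uncharged tRNA when amino acids run short, had 82.0, 152 and 127 cpm in sgCtrl and 135, 108 and 119 in sgN6AMT1. Its sgCtrl libraries spanned more than its sgN6AMT1 libraries, and the fold change was -0.02 (interval -0.43 to 0.39, adjusted p = 0.961), a value whose sign turned under several ways of processing. *OMA1*, the mitochondrial protease upstream of EIF2AK1, had 47.0, 50.8 and 44.8 cpm in sgCtrl and 34.8, 36.0 and 25.5 in sgN6AMT1. The conditions did not overlap, with a fold change of -0.58 ± 0.24 and an adjusted p of 0.124. Its gene lies within the span of *DAB1* on the same strand, so reads of the shared stretch could have been assigned to either gene.

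Of the genes that act beside the kinases, *DELE1*, the substrate of OMA1 that activates EIF2AK1, rose. The count table lists it under the older symbol KIAA0141, with 29.6, 23.1 and 29.5 cpm in sgCtrl and 45.3, 46.4 and 61.4 in sgN6AMT1. All 3 sgN6AMT1 libraries were above all sgCtrl libraries (fold change 0.92 ± 0.25, adjusted p = 0.0250). The call was lost without sgCtrl replicate 1 (adjusted p = 0.0670), without sgCtrl replicate 2 (0.136), without sgN6AMT1 replicate 3 (0.0921) and with DESeq2 (0.0556), and the adjusted p ranged from 0.00753 to 0.136 over all 16 alternatives. In the fit as reported *DELE1* was the 1 call among 17 tested genes of eIF2, its exchange factor eIF2B and the kinase adaptors. The share was 5.88%, against 9.85% of all genes tested, and the median fold change of the 17 was -0.06. An unadjusted p under 0.05 was reached by 7 of them, 3 higher and 4 lower (41.2%, against 26.2% of all genes tested). The eIF2 subunit *EIF2S2* was lower without overlap (fold change -0.45 ± 0.15, adjusted p = 0.0620). It was called lower with DESeq2, without a filter on low counts and with a replicate block. An offset for GC content and length, alone or with that block, gave the same call.

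The phosphatase subunits, which bring protein phosphatase 1 to eIF2α and so end the response, did not pass. *PPP1R15A* (GADD34), the stress-induced subunit and the higher of the pair per kilobase (37.2 in sgCtrl), had 94.1, 87.7 and 80.2 cpm in sgCtrl and 101, 89.3 and 83.3 in sgN6AMT1. The libraries of both conditions lay in the same range (fold change 0.05, interval -0.32 to 0.42, adjusted p = 0.893). The constitutive subunit *PPP1R15B*, with a motif match in its promoter window, had a fold change of 0.34 (interval -0.04 to 0.71, adjusted p = 0.240).

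In the ATF4-CHOP branch, 4 of 8 factors were tested and *TRIB3* was called, where 9.85% of all genes tested were. *ATF4* was by far the most abundant factor per kilobase, at 221 in sgCtrl against 17.0 for the next, *DDIT3*. It had 285, 300 and 356 cpm in sgCtrl and 391, 403 and 379 in sgN6AMT1. Each sgN6AMT1 library stood above each sgCtrl library, yet the fold change was small, 0.32 ± 0.14 (interval 0.02 to 0.62), and did not pass after adjustment (adjusted p = 0.165). It was 0.16 with an offset that corrects, library by library, for the GC content and length of transcripts. *DDIT3*, which encodes CHOP, the factor tied to prolonged stress and cell death, had 13.4, 13.8 and 18.9 cpm in sgCtrl and 16.9, 13.0 and 14.7 in sgN6AMT1. Its levels overlapped throughout (fold change -0.10, interval -0.80 to 0.59, adjusted p = 0.883), and its interval is wide enough to hold sizable changes in either direction. *DDIT3* also shares its locus with *MARS1* on the opposite strand, and whether counting used the strand is not given in the sources used here.

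*TRIB3*, a pseudokinase that is induced by ATF4 and CHOP and feeds back on both, had 53.8, 25.4 and 29.5 cpm in sgCtrl and 44.3, 60.8 and 101 in sgN6AMT1. The conditions overlapped, since sgCtrl replicate 1 was above sgN6AMT1 replicate 1, and sgN6AMT1 replicate 3 was well above the others. The fold change was 0.99 ± 0.30 (interval 0.35 to 1.63, adjusted p = 0.0463). The call was lost in 7 of 16 alternatives. Without sgCtrl replicate 2 the fold change was 0.77 (adjusted p = 0.234), without sgCtrl replicate 3 it was 0.86 (0.145), and leaving out sgN6AMT1 replicate 3 gave 0.61 (0.187). DESeq2 gave 0.93 (0.0711), scaling to total counts 0.96 (0.0538), thinning of the deeper libraries 0.93 (0.0700) and the offset for GC content and length 0.80 (0.0562), and the range of adjusted p over the 16 alternatives was 0.00132 to 0.234. The gene lies at chr20:362835-397559 on the plus strand, and no motif match was in its windows.

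*CEBPG*, a C/EBP family partner of ATF4 with a motif match, had a fold change of 0.02 (interval -0.62 to 0.67, adjusted p = 0.972). The other 4 factors were too low for the test. *ATF5*, a close relative of ATF4 that is also regulated by translation, had 10.8, 11.5 and 8.25 cpm in sgCtrl and 3.16, 3.29 and 4.63 in sgN6AMT1, from raw counts of 8, 10 and 7 and of 3, 18 and 18. Its conditions did not overlap. In the fit without a filter on low counts the fold change was -1.41 ± 0.53 (adjusted p = 0.0739), and with DESeq2 -1.46 ± 0.62 (adjusted p = 0.144). *ATF5* overlaps *NUP62* and *IL4I1* on the opposite strand. *ATF3*, a factor induced early in many stresses, had counts of 2, 8 and 9 in sgCtrl and 10, 46 and 34 in sgN6AMT1. *CEBPB*, another C/EBP partner, had 3, 7 and 9 and then 9, 64 and 43. Scaled to library size, *ATF3* was 2.69 to 10.6 in sgCtrl and 8.40 to 10.5 in sgN6AMT1 (cpm), and *CEBPB* 4.03 to 10.6 and 9.48 to 11.7. *NUPR1*, a small stress-induced chromatin protein, had 0 counts in every sgCtrl library and 0, 6 and 3 in sgN6AMT1. A count of 0 allows up to 3 counts, or 3.46 to 4.04 cpm in the sgCtrl libraries, so no difference was detectable there.

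Among stress effectors and secreted factors, 1 of the 3 tested genes was called, where 9.85% of all genes tested were. Each of the 3 was higher in every sgN6AMT1 library than in every sgCtrl library, as a description of 3 genes where 29.2% of all genes tested did not overlap in either direction. *GDF15*, a secreted cytokine of the TGF-β family that is known as a marker of mitochondrial stress, had 28.2, 24.2 and 34.2 cpm in sgCtrl and 47.4, 50.9 and 75.8 in sgN6AMT1. It rose from a mean of 28.9 ± 5.01 to 58.1 ± 15.5 cpm (SD, n = 3; fold change 1.03 ± 0.26, interval 0.49 to 1.57, adjusted p = 0.0173). The call was kept in 13 of 16 alternatives and lost without sgCtrl replicate 1 (adjusted p = 0.0672), sgCtrl replicate 2 (0.109) or sgN6AMT1 replicate 3 (0.0721), over a range of 0.00189 to 0.109. The gene lies at chr19:18374731-18389176 on the plus strand, with no motif match in its window.

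*SESN2* (Sestrin 2), a leucine sensor that restrains mTORC1, had 33.6, 32.3 and 27.1 cpm in sgCtrl and 35.8, 44.5 and 52.2 in sgN6AMT1. The gap between the conditions was narrow at sgN6AMT1 replicate 1, and the fold change of 0.55 ± 0.24 did not pass (adjusted p = 0.158). *DDIT4* (REDD1), which also restrains mTORC1 and was the most abundant of the branch per kilobase (25.9 in sgCtrl), had 45.7, 47.3 and 42.4 cpm in sgCtrl and 51.6, 61.7 and 59.4 in sgN6AMT1. Its conditions did not overlap either, and its fold change was 0.37 ± 0.21 (adjusted p = 0.267), or 0.18 with the offset for GC content and length and 0.24 after thinning.

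The other 4 genes of this branch were too low for the test. *CHAC1*, which breaks down glutathione, had counts of 5, 1 and 4 in sgCtrl and 4, 34 and 22 in sgN6AMT1, or 1.15 to 6.72 and 4.22 to 6.21 cpm. *STC2*, a secreted glycoprotein, had 1.34, 4.61 and 2.36 cpm in sgCtrl and 8.43, 10.4 and 3.34 in sgN6AMT1, with an overlap at sgN6AMT1 replicate 3 (no filter, fold change 1.35 ± 0.64, adjusted p = 0.196). *VLDLR*, a lipoprotein receptor, had at most 3 counts in any library, and *FGF21*, the other hormone of mitochondrial stress on the list, had 0 counts in all 6. For *FGF21* this count of 0 allows up to 0.543 cpm in the deepest library, beside 24.2 cpm or more for *GDF15* in every library.

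**Figure D2:**
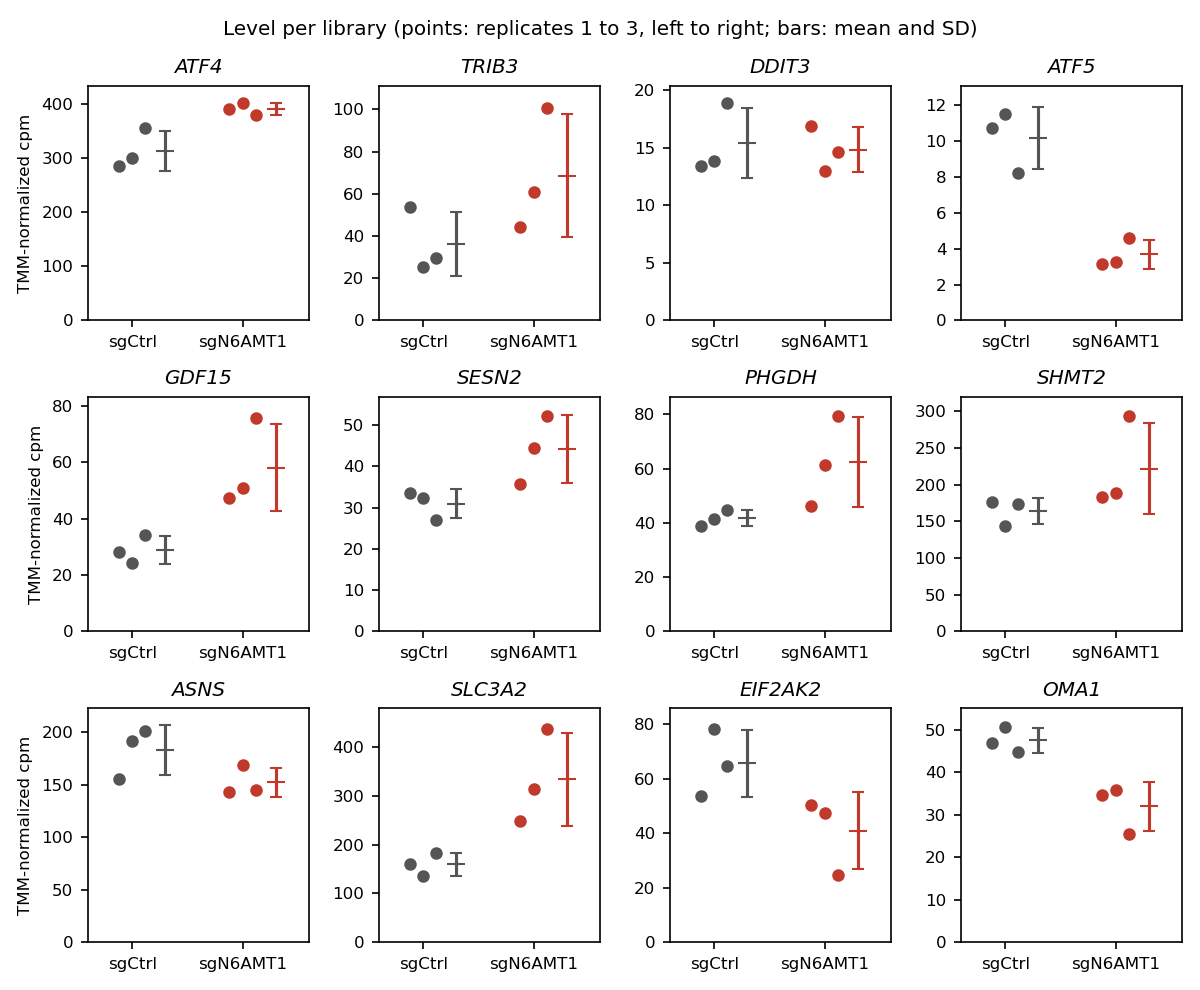
TMM-normalized cpm of 12 members in each library (vertical axes, from 0), with replicates 1 to 3 from left to right and the mean with SD beside them. The libraries of *GDF15* and *SLC3A2* separate by condition, those of *TRIB3* overlap at sgCtrl replicate 1, and those of *DDIT3* and *ASNS* overlap. *ATF5* did not enter the test.

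Serine synthesis and mitochondrial one-carbon metabolism supply glycine, formate and nucleotide precursors, and their genes are well-known ATF4 targets. None of the 6 passed the test in the fit as reported, and 3 had fold changes above 0 and 3 below. *PHGDH*, the first enzyme of serine synthesis from glucose, had 39.0, 41.5 and 44.8 cpm in sgCtrl and 46.4, 61.3 and 79.4 in sgN6AMT1. Its conditions did not overlap, and the fold change of 0.62 ± 0.23 did not pass (adjusted p = 0.0980). Without sgN6AMT1 replicate 1 it did (adjusted p = 0.0415), the lowest of a range of 0.0415 to 0.329. The next enzymes of the same route lay on the other side of 0, *PSAT1* at -0.18 (interval -0.61 to 0.26, adjusted p = 0.639) and *PSPH* at -0.20 (interval -0.73 to 0.32, adjusted p = 0.654).

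*SHMT2*, the mitochondrial enzyme that splits serine into glycine and a one-carbon unit, was the most abundant of the branch per kilobase (76.3 in sgCtrl). It had 176, 144 and 173 cpm in sgCtrl and 183, 189 and 294 in sgN6AMT1. The conditions did not overlap, but replicate 3 stood apart within sgN6AMT1 (fold change 0.45 ± 0.19, adjusted p = 0.134). Without that library the fold change was 0.18, and with the offset for GC content and length 0.28. *MTHFD2*, which oxidizes that one-carbon unit in mitochondria, was 194 to 231 cpm in sgCtrl and 245 to 262 in sgN6AMT1, again without overlap (fold change 0.25, adjusted p = 0.295). It was 0.37 with an offset for GC content and length (adjusted p = 0.0739) and passed with that offset and a replicate block (0.38, adjusted p = 0.0272), over a range of 0.0272 to 0.629. *MTHFD1L*, which releases it as formate and holds a motif match, did not differ detectably (fold change -0.03, interval -0.36 to 0.30, adjusted p = 0.930). Outside the list, *TYMS*, which makes thymidylate from a one-carbon unit, fell from 180 to 239 cpm in sgCtrl to 92.3 to 135 in sgN6AMT1 (fold change -0.86 ± 0.18, adjusted p = 0.00642). *GCSH*, the carrier protein of the mitochondrial glycine cleavage system, fell from 86.0 to 111 cpm to 58.9 to 64.2 (fold change -0.71 ± 0.18, adjusted p = 0.0193). The *GCSH* call was lost without sgCtrl replicate 2 (adjusted p = 0.0946), sgCtrl replicate 3 (0.0602) or sgN6AMT1 replicate 2 (0.0526), over a range of 0.00320 to 0.0946. These were the 2 calls among 18 tested genes of other amino acid metabolism in the fit as reported. The share was 11.1%, against 9.85% of all genes tested, and the median fold change of the 18 was -0.08. *MAT2A* of that list, whose conditions overlapped, just missed the threshold (fold change -0.72 ± 0.23, adjusted p = 0.05001). It was called lower in several alternatives, among them the replicate block, the fit without a filter on low counts and the offset for GC content and length.

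None of the asparagine, proline, alanine and transsulfuration enzymes passed, and 4 of 6 were below 0. *ASNS*, asparagine synthetase, is a classic ATF4 target with a motif match, and was the most abundant of the branch per kilobase (76.7 in sgCtrl). It had 156, 192 and 202 cpm in sgCtrl and 143, 168 and 145 in sgN6AMT1. The conditions overlapped, and the estimate was below 0, at -0.26 ± 0.16, with an interval of -0.59 to 0.07 (adjusted p = 0.309). The interval for *ASNS* thus does not reach the rise estimated for *SLC3A2*, *GDF15* or *TRIB3*.

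The proline enzymes *ALDH18A1* and *PYCR1* had fold changes of -0.19 (adjusted p = 0.572) and 0.24 (adjusted p = 0.384), and the alanine transaminase *GPT2* 0.23 (adjusted p = 0.712). The cysteine-making enzymes of transsulfuration, *CTH* and *CBS*, had -0.40 (adjusted p = 0.445) and -0.14 (adjusted p = 0.621). The value for *CBS* is uncertain, because its near-identical copy *CBSL* held 93.7 to 98.5% of the counts of *CBS* in every library, so reads of either copy could have been counted for both.

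Amino acid transport held the largest fold change among the 32 tested members in this fit. *SLC3A2* encodes the heavy chain CD98hc, which carries several transporter light chains to the cell surface, and it was the most abundant transporter of the list per kilobase (84.7 in sgCtrl). It had 160, 136 and 183 cpm in sgCtrl and 248, 314 and 437 in sgN6AMT1. All 3 sgN6AMT1 libraries were above all sgCtrl libraries, and the mean went from 160 ± 23.3 to 333 ± 95.9 cpm (SD, n = 3). The fold change was 1.07 ± 0.19 (interval 0.67 to 1.47, adjusted p = 0.00238), and it passed in all 16 alternatives, with an adjusted p of 3.93e-08 to 0.0325 and a fold change of 0.84 to 1.23. The gene lies at chr11:62856004-62888880 on the plus strand, and no exon of another annotated gene overlaps its exons.

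Of the light chains that pair with CD98hc, those on the list did not pass the test. *SLC7A5* (LAT1), which takes up leucine and other large neutral amino acids, had 204, 162 and 147 cpm in sgCtrl and 135, 152 and 135 in sgN6AMT1. Its conditions overlapped (fold change -0.27, interval -0.62 to 0.07, adjusted p = 0.298). *SLC7A11* (xCT), the cystine importer, was low, at 9.41 to 28.8 cpm in sgCtrl and 14.8 to 18.0 in sgN6AMT1 (fold change -0.33, interval -1.06 to 0.40, adjusted p = 0.593), and the antisense gene *SLC7A11-AS1* overlaps it. Of light chains outside the list, *SLC7A6* had a fold change of 0.22 (adjusted p = 0.535).

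*SLC7A8* (LAT2) rose, as the 1 gene called among 7 tested transporters outside the list (14.3%, against 9.85% of all genes tested). It had 21.5, 18.5 and 7.07 cpm in sgCtrl and 62.2, 43.3 and 30.9 in sgN6AMT1, without overlap (fold change 1.48 ± 0.36, adjusted p = 0.0149). Its call was lost without sgCtrl replicate 2 (adjusted p = 0.0604) or sgCtrl replicate 3 (0.0668), over a range of 1.14e-04 to 0.0668.

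The ratio of *SLC3A2* to *SLC7A5* counts within a library, which does not depend on depth or scaling, was 0.783, 0.843 and 1.24 in sgCtrl and 1.84, 2.07 and 3.24 in sgN6AMT1. The means were 0.955 ± 0.248 and 2.38 ± 0.75 (SD, n = 3), and the conditions did not overlap (two-sided exact permutation p = 0.1, the smallest possible, and 0.2 after Benjamini-Hochberg adjustment over 4 ratios). For *SLC7A6* the ratio was 2.51 to 3.22 in sgCtrl and 4.61 to 6.09 in sgN6AMT1, also without overlap (exact permutation p = 0.1). For *SLC7A8*, which rose itself, it was 7.38 to 25.8 and 3.98 to 14.2 (exact permutation p = 0.5), and for *SLC7A11* 4.72 to 17.0 and 16.8 to 24.3 (exact permutation p = 0.2). None of the 4 ratios could pass 0.05 with 3 libraries per condition. *SLC3A2* had already been called higher in these same libraries, so the ratios are a description and no further support for its rise.

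**Figure D3:**
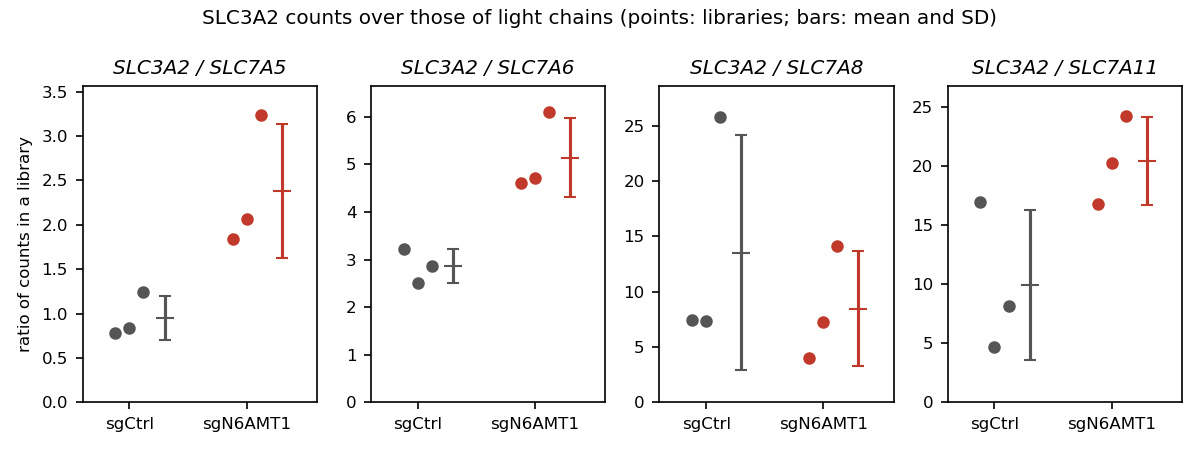
Ratio of *SLC3A2* counts to the counts of light chain genes in each library (vertical axes, no unit), with replicates 1 to 3 from left to right and the mean with SD beside them. The ratio to *SLC7A5* was 0.783 to 1.24 in sgCtrl and 1.84 to 3.24 in sgN6AMT1, without overlap, whereas the ratio to *SLC7A8* overlapped.

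The other listed transporters did not pass. *SLC1A5*, the glutamine transporter ASCT2, had 237, 219 and 219 cpm in sgCtrl and 213, 290 and 303 in sgN6AMT1 (fold change 0.27, adjusted p = 0.290). The cationic transporter *SLC7A1* had a fold change of 0.25 (adjusted p = 0.603). *SLC38A2* (SNAT2), the transporter known to be induced by amino acid shortage, was 189 to 213 cpm in sgCtrl and 133 to 189 in sgN6AMT1, with a narrow gap between the conditions (fold change -0.27, adjusted p = 0.310).

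Branch medians by library are given as a description over few genes. Relative to the sgCtrl mean on the log2 scale, the stress effectors were at 0.02, 0.06 and -0.09 in sgCtrl and at 0.21, 0.52 and 0.74 in sgN6AMT1, a median over 3 genes. The transporters were at 0.06, 0.02 and -0.07 in sgCtrl and -0.10, 0.01 and 0.20 in sgN6AMT1, overlapping in spite of *SLC3A2*. The 32 members together were at -0.02, -0.02 and 0.11 in sgCtrl and 0.11, 0.05 and 0.05 in sgN6AMT1. Replicate 3 of sgN6AMT1 held the highest level of *SLC3A2*, *GDF15*, *TRIB3*, *SESN2*, *PHGDH*, *SHMT2*, *PYCR1*, *SLC7A1* and *SLC1A5* among the 6 libraries. It held the lowest level of *EIF2AK2*, *OMA1*, *PSAT1* and *SLC38A2*. It also had the lowest share of counts on mtDNA-encoded ORFs (0.468%) and the highest summed erythroid markers (34828 cpm). Its counts differed from those of sgN6AMT1 replicates 1 and 2 by a chi-square per degree of freedom of 9.39 and 12.6. Between replicates 1 and 2 that value, which grows with depth, was 3.95. The relation between these values was not tested.

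**Figure D4:**
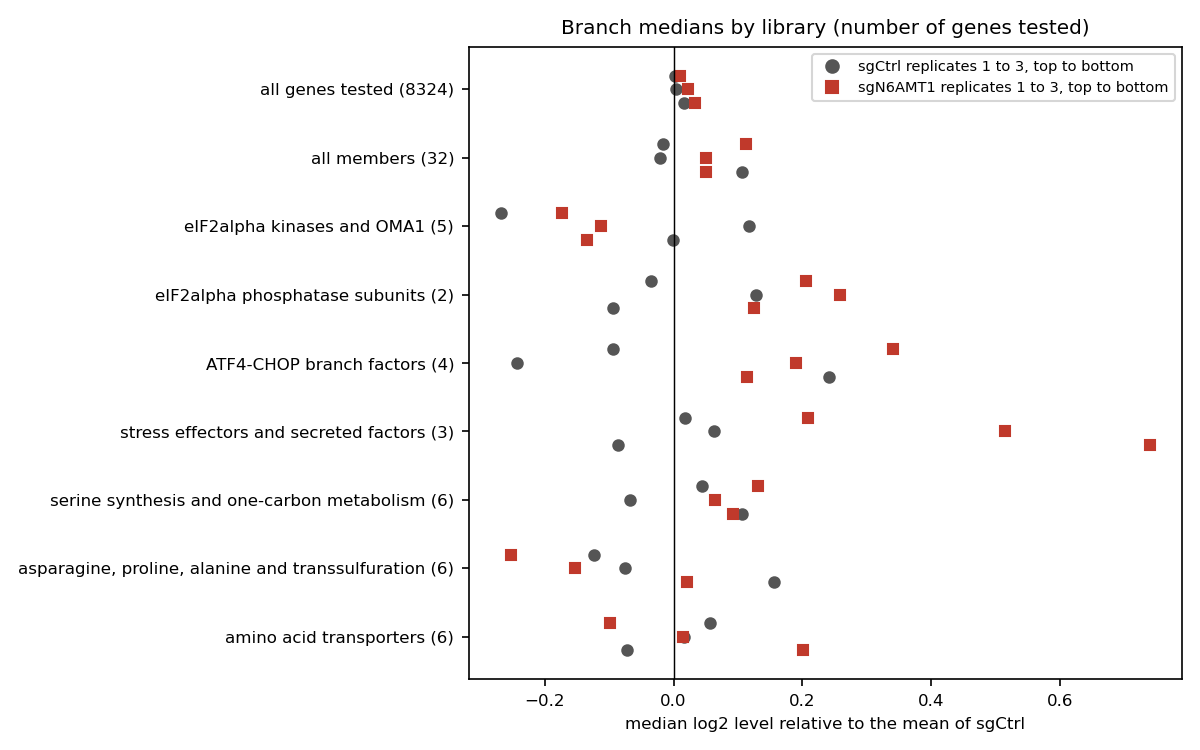
Median log2 level of the tested genes of each branch in each library, relative to the sgCtrl mean (horizontal axis), with the number of genes in brackets. The stress effectors reach 0.21 to 0.74 in sgN6AMT1, above their sgCtrl libraries, while the 32 members together span -0.02 to 0.11 in sgCtrl and 0.05 to 0.11 in sgN6AMT1.

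Neighboring pathways were read in the same way, from lists chosen by function, also with earlier results of these data known. Over 7 such lists 108 genes were tested and 8 were called, 3 higher and 5 lower (7.41%, against 9.85% of all genes tested), with a median of -0.0044. The cytosolic aminoacyl-tRNA synthetases, which charge tRNAs and include many ATF4 targets, held 0 calls among 19 tested genes in the fit as reported and with DESeq2, and 1 with an unadjusted p under 0.05. Their fold changes lay between -0.21 and 0.44, the highest being that of *SARS1* (adjusted p = 0.0566), the seryl-tRNA synthetase, which was called in edgeR with a replicate block, with at least 10 counts in every library, and with block and offset. The ATF6 and XBP1 branch of the unfolded protein response, which answers stress of the endoplasmic reticulum, held 0 calls among 18 in the fit as reported and with DESeq2, and 5 with an unadjusted p under 0.05, of which 1 was higher and 4 were lower. Its chaperone *HSPA5* (BiP), at -0.50 (adjusted p = 0.105), was called lower with a replicate block, without a filter on low counts, without sgN6AMT1 replicate 1, and with the block and the offset for GC content and length, and *HSP90B1* and *MANF* were called with block and offset.

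Among 12 tested bZIP partners and repressors of ATF4, *JUN* rose and *FOSL1* fell, both components of the AP-1 factor. They were the 2 calls of that list in the fit as reported (16.7%, against 9.85% of all genes tested). *JUN* had 6.72, 12.7 and 9.43 cpm in sgCtrl and 35.8, 30.3 and 24.2 in sgN6AMT1 (fold change 1.58 ± 0.34, adjusted p = 0.00876), and *FOSL1* 12.1, 16.2 and 13.0 and then 5.27, 2.92 and 4.11 (fold change -1.88 ± 0.41, adjusted p = 0.00907). Neither gene's conditions overlapped. The *JUN* call was lost without sgCtrl replicate 1 (adjusted p = 0.0513, range 7.09e-04 to 0.0513), and that of *FOSL1* without sgCtrl replicate 2 (0.0756) or sgN6AMT1 replicate 2 (0.0657, range 0.00207 to 0.0756).

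Among 17 tested regulators of mTORC1, the growth kinase complex that Sestrin 2 restrains, 2 were called, both lower (11.8%, against 9.85% of all genes tested). *NPRL3*, a subunit of the GATOR1 complex that shuts mTORC1 off when amino acids are scarce, was 46.0 to 61.8 cpm in sgCtrl and 27.2 to 32.7 in sgN6AMT1 (fold change -0.84 ± 0.23, adjusted p = 0.0279). *SEH1L*, a subunit of the opposing GATOR2 complex and of the nuclear pore, was 200 to 211 cpm and 137 to 145 cpm (fold change -0.56 ± 0.15, adjusted p = 0.0214). Both calls were lost without sgCtrl replicate 1 (adjusted p = 0.119 and 0.0694), sgCtrl replicate 2 (0.0942 and 0.0810) or sgN6AMT1 replicate 2 (0.112 and 0.0852), and that of *SEH1L* also after thinning (0.0502). Their adjusted p ranged from 0.00354 to 0.119 and from 0.00152 to 0.0852. *NPRL2*, another subunit of GATOR1, went the other way, from 16.1 to 21.9 cpm in sgCtrl to 27.4 to 46.3 in sgN6AMT1. Its fold change of 0.91 ± 0.30 did not pass (adjusted p = 0.0608). It was called higher without a filter on low counts, with a replicate block and without sgN6AMT1 replicate 2.

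The motif matches were set beside the calls. Of the 10 members with a match 7 were tested and 1, *SLC3A2*, was called, with a median fold change of 0.25 over the 7. Of the 23 with a window and no match 19 were tested and 2 were called, with a median of -0.02. Of all genes tested 9.85% were called, and their median was 0.01. With 1 and 2 calls, members with and without a match cannot be told apart. The match of *SLC3A2* begins, in the direction of the gene, 36 bases past the transcription start of 1 of its 3 windows. *ASNS* and *SLC7A1*, whose matches read the same, TGATGAAAC, had fold changes of -0.26 and 0.25, neither of which passed.

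The GC content of transcripts went with the fold changes. The called members have a transcript GC content of 57.8 to 62.9%, while the tested members have a median of 50.8% and all genes tested one of 47.1%. Spearman's rho between GC content and fold change was 0.61 over the 32 members and 0.26 over 8173 genes, as a description across genes that share 6 libraries. After an offset for GC content and length in each library the rho was 0.37 over the members and -0.0050 over all genes. With that offset *SLC3A2* (fold change 0.89) and *GDF15* (0.80) were still called. *TRIB3* was at 0.80, past the threshold with offset and replicate block (adjusted p = 0.0217) and not with the offset alone (0.0562, range 0.00132 to 0.234). What GC content contributes to the 3 calls was not tested beyond these values.

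**Figure D5:**
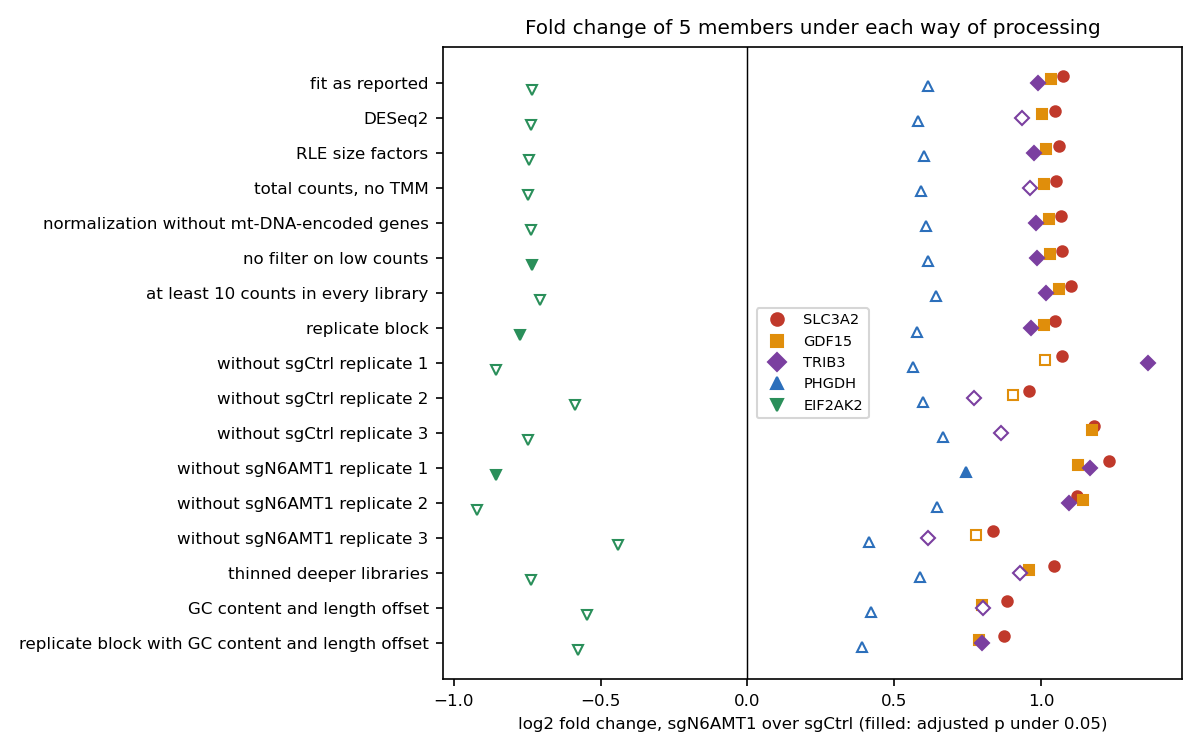
Log2 fold change of *SLC3A2*, *GDF15*, *TRIB3*, *PHGDH* and *EIF2AK2* in the fit as reported and in 16 alternatives. Filled symbols have an adjusted p under 0.05. *SLC3A2* is filled throughout, *GDF15* in 13 and *TRIB3* in 9 of the 16 alternatives.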

How the data were processed

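RNA from lysates of K562 cells was sequenced as stranded total RNA after rRNA depletion, although the labels list polyA RNA. The authors trimmed reads with cutadapt, mapped them with HISAT2 to GRCh38 and deposited raw counts per gene. The counting tool, its use of strand and its handling of multi-mapping reads are not given in the sources used here. Genes were filtered with filterByExpr and normalized by TMM, and all 6 libraries entered a single quasi-likelihood fit in edgeR 4.0.16 (glmQLFit, then glmQLFTest, under R 4.3.3) without covariates, after tests on simulated data. DESeq2 1.42.0, the tool of the study's own comparison, was an alternative, as were other scalings and filters, a replicate block, thinning, an offset for GC content and length, and each library left out. The members and lists were chosen with earlier results of these data known. Genes given by library are those called, those with an unadjusted p under 0.05 and no overlap, *ATF4*, *DDIT3*, *ASNS*, the 4 EIF2AK kinases and the most abundant gene of each branch per kilobase. The values of *ATF5*, *STC2*, *DDIT4*, *SLC7A5* and *SLC1A5* by library were added after they were seen. Positions, length and GC content are from GENCODE (GRCh38). The SE and 95% intervals given for edgeR are approximations worked out from the fold change and F statistic of the fit. They include the spread between libraries, while floors cover counting error only.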

Additional observations from a re-analysis of the deposited data

How the results depend on the processing

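Of the 32 tested members 25 kept the sign of their fold change in every alternative that gave a value (16, or 15 for *GPT2*, which was not tested with at least 10 counts in every library). The number of members called, 3, became 1 with 0.01 as the threshold and 1 to 5 with a library left out. The genes called over the whole table, 820, were 214 at that threshold, 1390 with a replicate block and an offset for GC content and length, and 220 to 951 with a library left out. The 8 calls in the neighboring pathways became 14 without a filter on low counts, 14 with a replicate block, 16 with the block and the offset, and 2 to 11 with a library left out. The members' median of 0.04 was 0.19 with DESeq2 and 0.21 without a filter (where it was 0.12 for all genes tested), over more members, and -0.0261 to 0.1453 with a library left out. The replicate numbers share only a number (correlations of deviations -0.00052, 0.0827 and 0.190, with only replicate 3 closest to its own number). With them as a replicate block 1195 genes and 4 members were called, *EIF2AK2* (adjusted p = 0.0279) being added.

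Signs turned for 7 members, whose reported fold changes ran from -0.33 (*SLC7A11*) to 0.25 (*SLC7A1*). *EIF2AK4* was 0.0051 with at least 10 counts in every library, 0.0771 after thinning, 0.015 with the offset and 0.0038 with block and offset. *PPP1R15A* was -0.1099 with the offset and -0.1029 with block and offset. After thinning *CEBPG* was -0.0564 and *SLC7A1* -0.0004. With a library left out, *EIF2AK4* ranged from -0.23 to 0.18, *PPP1R15A* from -0.0171 to 0.1075, *DDIT3* from -0.1884 to 0.0708, *CEBPG* from -0.16 to 0.27, *MTHFD1L* from -0.1277 to 0.0406 and *SLC7A11* from -0.655 to 0.002. The mean *N6AMT1* difference was -6.84 to -4.48 cpm with a library left out, an alternative chosen after seeing the data. *TRIB3* was also lost with DESeq2 (adjusted p = 0.0711), total counts (0.0538), thinning (0.0700) and the offset (0.0562). Depth limits the 8 untested members, none of which held over 64 counts in a library.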
